A study of Teleogryllus oceanicus with 18 samples.

Results

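A set of 19 genes of the field cricket Teleogryllus oceanicus had day 7 expression in Kauai crickets at or below 0.25 of the Kauai control level, while Mangaia crickets at day 7 were at or above the Mangaia control level. They are 19 of the 32729 genes counted and of the 23748 genes that were expressed highly enough to test. Levels are CPM, read pairs per fixed total of the library, after TMM scaling, which adjusts that total for differences in composition between libraries, and each group level is the mean of 3 libraries. Genes also had to have control means of at least 1 and under 1000 CPM in both populations. The genes were therefore chosen by their values in the control and day 7 libraries, and the values of those libraries are given below as a description. The day 4 libraries entered the choice only through the expression filter and the scaling factors, which use all 18 libraries. Kauai against Mangaia at day 4 was therefore the only comparison of groups that could be read as a test of these genes.

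RNA-seq was carried out on 18 libraries, each from the mixed RNA of 2 adult males, with 3 pools in each of 6 groups. Mangaia crickets came from a laboratory colony founded in the Cook Islands, where the parasitoid fly Ormia ochracea is absent, and Kauai crickets from a colony founded in Hawaii, where the fly occurs. Infested males, aged 4 to 12 days as adults, received 2 fly larvae each and were sampled 4 or 7 days later, and control males were handled in the same way without larvae. Each population had 1 control group with no sampling day given, so controls are not known to match day 4 or day 7 in time. Each Kauai pool joined 1 flatwing male, which cannot sing, with 1 normal-wing male, whereas Mangaia pools held only normal-wing males, so population and wing morph cannot be told apart. The larvae had come from flies collected in California, and crickets from which larvae had already emerged were left out by the authors. RNA was taken from the body without head, digestive tract, pronotum, wings and legs, after the larvae had been dissected out, so 1 library holds many tissues. In such samples, fewer cells of a type and less RNA per cell cannot be told apart.

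Ormia ochracea finds male crickets by their song and leaves mobile larvae that burrow into the host, feed inside it and kill it when they emerge. Insects commonly meet internal parasites with blood cells that enclose the intruder and with phenoloxidase, the enzyme that makes melanin. Colonies such as these allow a host population that lives with the fly to be compared with one that does not. None of the 19 genes has an annotated product in the sources used here, so they are named by their identifiers and no role is given. MSTRG is the prefix that StringTie, the program used to merge splice junctions, gives to the loci it assembles, and the TOG prefix is used as the files give it.

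Read pairs assigned to genes ranged from 6266925 to 8023588 per library, and 99.9% of them fell in the tested genes. At this depth a level of 1 CPM was about 6 to 8 read pairs, and several of the 19 genes were near that level. Within groups, the mean correlation of a library with the others of its group ranged from 0.902 to 0.964. The lowest belonged to Mangaia day 7 pool 2, followed by 0.923 for the next library. All libraries were sequenced in 1 lane, and no other batch is given. The sources used here name no tissue marker genes. Of the 7 listed phenoloxidase genes, 6 or 7 were detected in each library. Their summed level ranged from 140 to 220 CPM in control pools of both populations and from 860 to 1944 CPM in day 7 pools.

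A day 7 fall restricted to Kauai was rare among the genes that met the same expression limits. Control means were in range for 18346 genes, of which 3696 were at or below 0.25 of control at day 7 in Kauai. In Mangaia, 2565 of these (69.4%) were also at or below 0.25 of control, 1112 (30.1%) were between 0.25 and 1, and 19 (0.514%) were at or above control. The Mangaia ratio of the 3696 genes had a median of 0.200, quartiles of 0.146 and 0.268, and a 99th percentile of 0.729. In the mirror direction, 3124 genes were at or below 0.25 of control at day 7 in Mangaia, and 115 of them (3.68%) were at or above control in Kauai. These numbers describe the rule and were not tested.

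**Figure D1:**
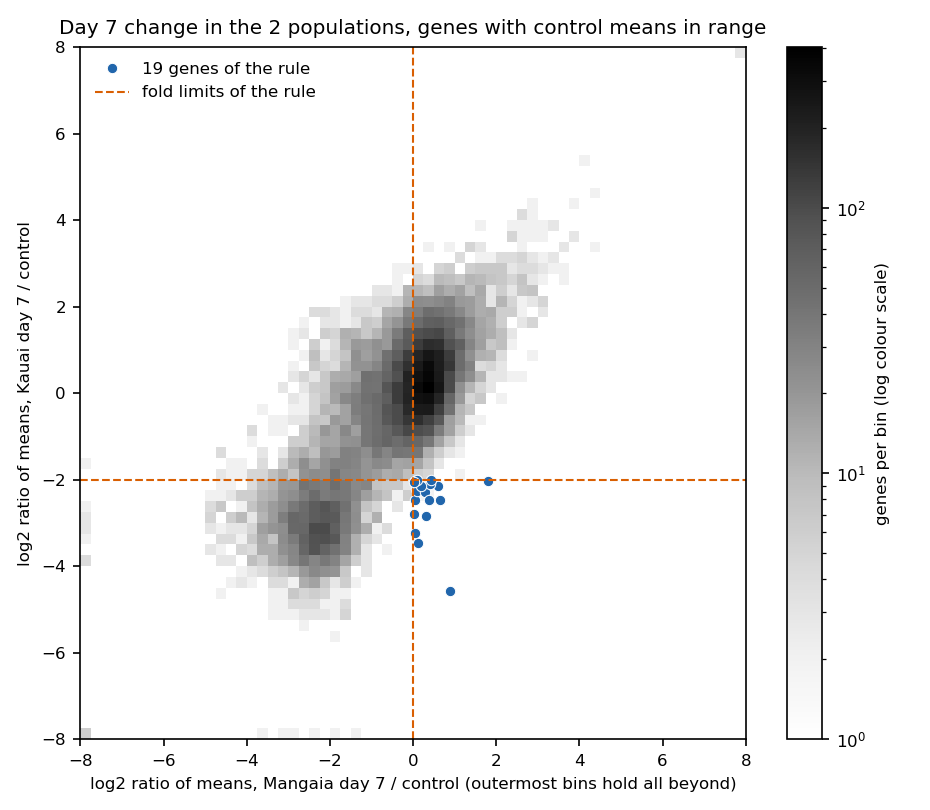
Each square counts genes by the log2 ratio of day 7 to control means in Mangaia (horizontal axis) and in Kauai (vertical axis), for the 18346 genes with control means in range, on a log colour scale. Dashed lines are the fold limits of the rule, and the 19 genes (blue points) lie below the one and to the right of the other, most of them close to the vertical line.

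Many of the 19 genes lay near a limit of the rule, at 1 in Mangaia or at 0.25 in Kauai. Their Kauai ratios of day 7 to control ran from 0.0421 to 0.2497, with a median of 0.207, against 0.976 over the 18346 genes. Their Mangaia ratios ran from 1.01 to 3.51, with a median of 1.14, against 0.974 over the 18346 genes. In Mangaia, 9 of the 19 had a ratio under 1.1, 18 were between 1 and 2 times control, and 1 was above 2 times control. The Mangaia day 7 pools lay on both sides of the Mangaia control mean for 14 of the 19 genes, against 26.5% of the 18346 genes. The Mangaia day 7 means of most of these genes were thus under 2 times control, with the lower limit of 1 set by the rule itself. Pools on both sides of the control mean can also reflect wide spread, as for MSTRG.14947 at 604, 287 and 1507 CPM at day 7. These values describe day 7 only: at day 4, 6 of the 19 were at or below 0.5 of control in Mangaia.

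Levels were low for most of the genes. Control means of at least 5 CPM in both populations were found for 4 of the 19 (58.7% of the 18346 genes), namely MSTRG.14947, MSTRG.4126, MSTRG.11046 and MSTRG.17542. For 9 of the 19, both control means were under 5 CPM (32.6% of the 18346 genes). Levels in CPM are not corrected for gene length and were compared only within a gene.

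MSTRG.14947 was by far the most abundant of the 19 in read pairs, with 3148 to 17688 pairs in each group. In Kauai it was at 779, 899 and 674 CPM in the control pools (pools 1, 2 and 3), at 692, 1033 and 277 CPM at day 4 and at 139, 187 and 96.9 CPM at day 7. All Kauai day 7 pools lay below all other Kauai pools, whereas the day 4 pools ranged from above every control pool to well below them. In Mangaia the control pools were at 471, 431 and 628 CPM, the day 4 pools at 282, 145 and 319 CPM and the day 7 pools at 604, 287 and 1507 CPM. Here the day 4 pools were all below the controls, and the day 7 pools spread from below to far above the controls, the lowest of them within the day 4 range. The Kauai means were 784 ± 113 CPM in controls and 141 ± 45.1 CPM at day 7 (SD, n = 3), a ratio of 0.180. The Mangaia means were 510.0 ± 104 CPM in controls and 799.6 ± 633 CPM at day 7 (SD, n = 3), a ratio of 1.57, which became 0.895 without day 7 pool 3, so that the gene then no longer met the rule.

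MSTRG.4126 varied widely between Kauai pools of the same group. Its Mangaia pools were at 16.2, 17.3 and 16.2 CPM in controls, at 18.2, 14.2 and 15.0 CPM at day 4 and at 27.8, 16.7 and 31.1 CPM at day 7. The Kauai pools were at 0.996, 22.0 and 19.4 CPM in controls, at 25.5, 14.1 and 1.09 CPM at day 4 and at 1.53, 1.06 and 7.00 CPM at day 7. All 9 Mangaia pools thus lay in one band, while Kauai pools were either at 14.1 CPM and above or near 1 CPM, apart from 1 day 7 pool at 7.00 CPM. The pools near 1 CPM included 1 control pool and 1 day 4 pool. The Kauai ratio of 0.226 ranged from 0.0870 (without Kauai day 7 pool 3) to 0.312 (without Kauai control pool 2) when 1 pool was left out, and it was above 0.25 without Kauai control pool 2 or 3 or Kauai day 7 pool 1 or 2.

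A single low pool also entered the group values of MSTRG.11046. Kauai controls were at 15.6, 2.23 and 17.1 CPM, Kauai day 4 at 3.81, 10.2 and 8.89 CPM and Kauai day 7 at 1.53, 0.663 and 4.09 CPM. The Mangaia controls were at 13.6, 11.6 and 13.4 CPM, day 4 at 7.58, 2.21 and 5.66 CPM and day 7 at 10.4, 17.9 and 11.5 CPM. Control pool 2 of Kauai lay within the Kauai day 7 range, so these groups overlapped. In Mangaia the day 4 pools were all below the control pools, and the day 7 pools lay around the controls.

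MSTRG.17542 was even among the control pools of both populations. It was at 10.1, 9.88 and 12.1 CPM in Kauai controls, at 8.51, 4.90 and 7.80 CPM at day 4 and at 0.694, 1.19 and 4.752 CPM at day 7. The Kauai pools were ordered from control through day 4 to day 7 without overlap, although the lowest day 4 pool and the highest day 7 pool were nearly equal. In Mangaia it was at 5.79, 5.31 and 4.58 CPM in controls, at 8.80, 5.25 and 5.12 CPM at day 4 and at 5.82, 6.51 and 4.39 CPM at day 7, and all 3 groups overlapped. The Kauai control mean was 2.05 times the Mangaia control mean, and the Kauai day 7 mean was 0.397 of the Mangaia day 7 mean.

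**Figure D2:**
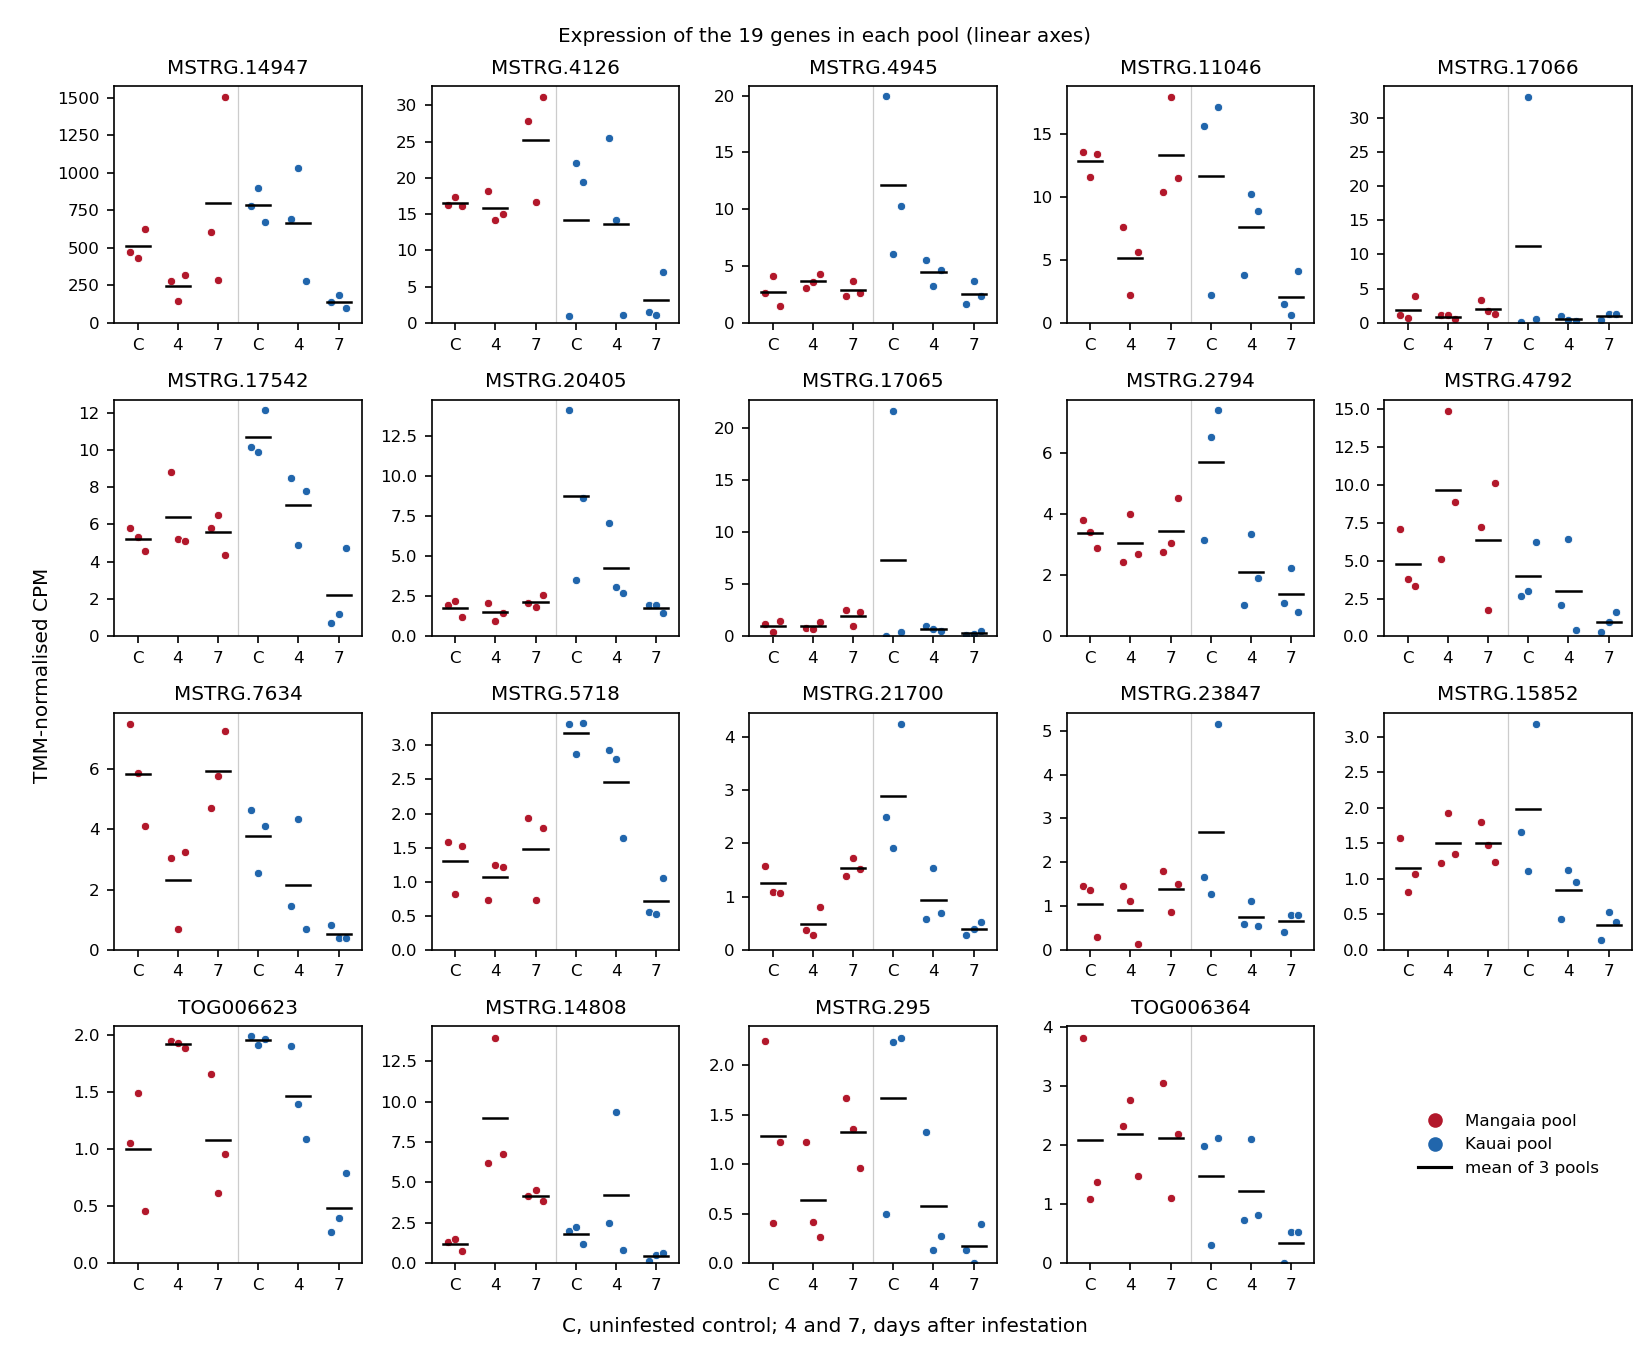
TMM-normalized CPM of each of the 19 genes in every pool (points, red for Mangaia and blue for Kauai) and group means of 3 pools (lines), on linear axes that differ between panels. In MSTRG.17066 and MSTRG.17065 a single Kauai control pool, at 33.0 and 21.7 CPM, stands far above all others.

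In several genes the Kauai controls were higher than the Mangaia controls. The Kauai control mean was at least 2 times the Mangaia control mean for 8 of the 19 genes, against 4.61% of the 18346 genes. It was below the Mangaia control mean for 5 of the 19, against 49.8% of the 18346 genes. MSTRG.17066 and MSTRG.17065, where it rested on 1 pool, are among the 8. All Kauai control pools were above all Mangaia control pools for 7 of the 19 (13.5% of tested genes). The ratio of Kauai to Mangaia means had a median over the 19 of 1.72 in controls, 0.860 at day 4 and 0.236 at day 7, against 1.00, 0.995 and 0.983 over the 18346 genes. The Kauai day 7 mean was under 0.5 of the Mangaia day 7 mean for 17 of the 19, against 6.48% of the 18346 genes. That count follows in part from the rule, which read both day 7 means against their controls. A ratio to the Kauai control is lower where that control is higher, so these control values were part of what the rule used.

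After MSTRG.17065 and MSTRG.17066, the highest ratios of Kauai to Mangaia control means were those of MSTRG.20405 (4.89) and MSTRG.4945 (4.40). MSTRG.4945 was at 19.9, 6.06 and 10.3 CPM in Kauai controls, at 5.57, 3.22 and 4.65 CPM at day 4 and at 1.67, 3.71 and 2.38 CPM at day 7. Its 9 Mangaia pools lay between 1.53 and 4.31 CPM, so the Kauai day 7 pools were within the Mangaia range and the Kauai control pools were all above it. The Kauai day 7 mean was 0.897 of the Mangaia day 7 mean.

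MSTRG.20405 was at 14.1, 3.51 and 8.64 CPM in Kauai controls, at 7.04, 3.08 and 2.74 CPM at day 4 and at 1.94, 1.99 and 1.45 CPM at day 7. Its 9 Mangaia pools lay between 0.967 and 2.61 CPM, below every Kauai control and day 4 pool and around the Kauai day 7 pools. MSTRG.4945 and MSTRG.20405 had a correlation of 0.835 across the 18 libraries, a description over libraries that the choice of the genes shares. For all 171 pairs of the 19 genes the median correlation was 0.414, and 5 pairs were above 0.8.

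For MSTRG.17066 and MSTRG.17065, the Kauai control mean was set by 1 pool. MSTRG.17066 was at 0.166, 33.0 and 0.606 CPM in Kauai controls, from 1, 207 and 4 read pairs, and MSTRG.17065 at 0, 21.7 and 0.455 CPM, from 0, 136 and 3 read pairs. Outside Kauai control pool 2, the highest library was at 3.97 CPM for MSTRG.17066 and 2.49 CPM for MSTRG.17065. Without that pool the Kauai ratios of day 7 to control were 2.64 and 1.36 in place of 0.0907 and 0.0421, so neither gene was then lower at day 7. The identifiers are consecutive, the correlation of the pair across the 18 libraries was 0.876, and no other tested gene reached 10 CPM and 5 times every other library in that pool alone.

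MSTRG.2794 and MSTRG.4792 complete the 10 genes with the highest Kauai control means. MSTRG.2794 was at 3.16, 6.53 and 7.43 CPM in Kauai controls, 1.03, 3.36 and 1.92 CPM at day 4 and 1.11, 2.25 and 0.792 CPM at day 7, while its 9 Mangaia pools lay between 2.44 and 4.53 CPM. MSTRG.4792 was at 2.66, 3.03 and 6.22 CPM in Kauai controls, 2.05, 6.44 and 0.411 CPM at day 4 and 0.278, 0.928 and 1.58 CPM at day 7, while its Mangaia pools ranged more widely, from 1.72 to 14.9 CPM. For both genes the Kauai day 7 pools were all below the Kauai controls, and the Kauai day 4 pools overlapped the day 7 pools.

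The remaining genes had few reads in Kauai at day 7. MSTRG.7634, MSTRG.23847, TOG006623 and TOG006364, which lay nearest the fold limits, and MSTRG.5718, MSTRG.21700, MSTRG.15852, MSTRG.14808 and MSTRG.295 had Kauai day 7 totals of 4 to 16 read pairs over 3 pools. MSTRG.7634 was at 4.65, 2.55 and 4.09 CPM in Kauai controls, at 1.47, 4.34 and 0.684 CPM at day 4 and at 0.833, 0.398 and 0.396 CPM at day 7. In Mangaia this gene was at 4.12 to 7.499 CPM in controls, 0.690 to 3.23 CPM at day 4 and 4.71 to 7.27 CPM at day 7, so that the day 4 pools lay below both other groups. The last 5 genes named here were chosen after their values were seen.

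MSTRG.14808 was the only gene of the 19 that was above 2 times control in Mangaia at day 7. The Mangaia pools were at 1.32, 1.499 and 0.763 CPM in controls, 6.23, 13.9 and 6.74 CPM at day 4 and 4.16, 4.54 and 3.84 CPM at day 7. The Kauai pools were at 1.99, 2.23 and 1.21 CPM in controls, 2.49, 9.38 and 0.821 CPM at day 4 and 0.139, 0.530 and 0.660 CPM at day 7. All infested Mangaia pools were above the Mangaia controls and all Kauai day 7 pools below the Kauai controls, with Kauai day 4 pools from below to far above the controls. The Kauai day 7 level came from 1, 4 and 5 read pairs.

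MSTRG.21700 was the one gene that met the rule whichever of the 12 control and day 7 pools was left out. It was at 2.49, 1.91 and 4.24 CPM in Kauai controls and at 0.278, 0.398 and 0.528 CPM at day 7, from 2, 3 and 4 read pairs, with day 4 pools at 0.587, 1.54 and 0.684 CPM. In Mangaia the controls were at 1.58, 1.09 and 1.07 CPM, the day 4 pools at 0.367, 0.276 and 0.808 CPM and the day 7 pools at 1.39, 1.72 and 1.51 CPM. The day 4 pools of both populations were below their controls, and at day 7 only the Mangaia pools were within or above the control range.

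Other genes lay close outside the limits of the rule. At the Kauai limit of 0.25, MSTRG.23847 (0.248) and TOG006623 (0.2497) were inside, and MSTRG.2323 (0.256) and MSTRG.5075 (0.258) outside. At the Mangaia limit of 1, TOG006364 (1.01) and MSTRG.7634 (1.02) were inside, and MSTRG.21946 (0.968) and MSTRG.2205 (0.975) outside. MSTRG.2205 had a Kauai control mean of 56.1 CPM, above that of every gene of the 19 but MSTRG.14947.

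Membership changed when single pools were left out. The rule then gave 13 to 24 genes, of which 6 to 15 were among the 19. Without Kauai day 7 pool 1, 2 or 3, respectively 6, 9 and 10 of the 19 remained, and without any one of the other 9 pools 11 to 15 remained. With the median of the 3 pools in place of the mean, 26 genes met the rule, of which 8 were among the 19. TMM factors were recomputed each time a pool was left out, which also moved ratios in the other population: without Kauai day 7 pool 1, the Mangaia ratio of MSTRG.14947 was 1.42 in place of 1.57. With the factors of all 18 libraries kept, an alternative added after the data were seen, 10, 15 and 18 of the 19 remained without Kauai day 7 pool 1, 2 or 3, and 11 to 16 without one of the others. MSTRG.14947 and MSTRG.20405 met the rule in 11 of the 12 cases under both ways of scaling, and TOG006623 in 1 case with recomputed factors.

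**Figure D3:**
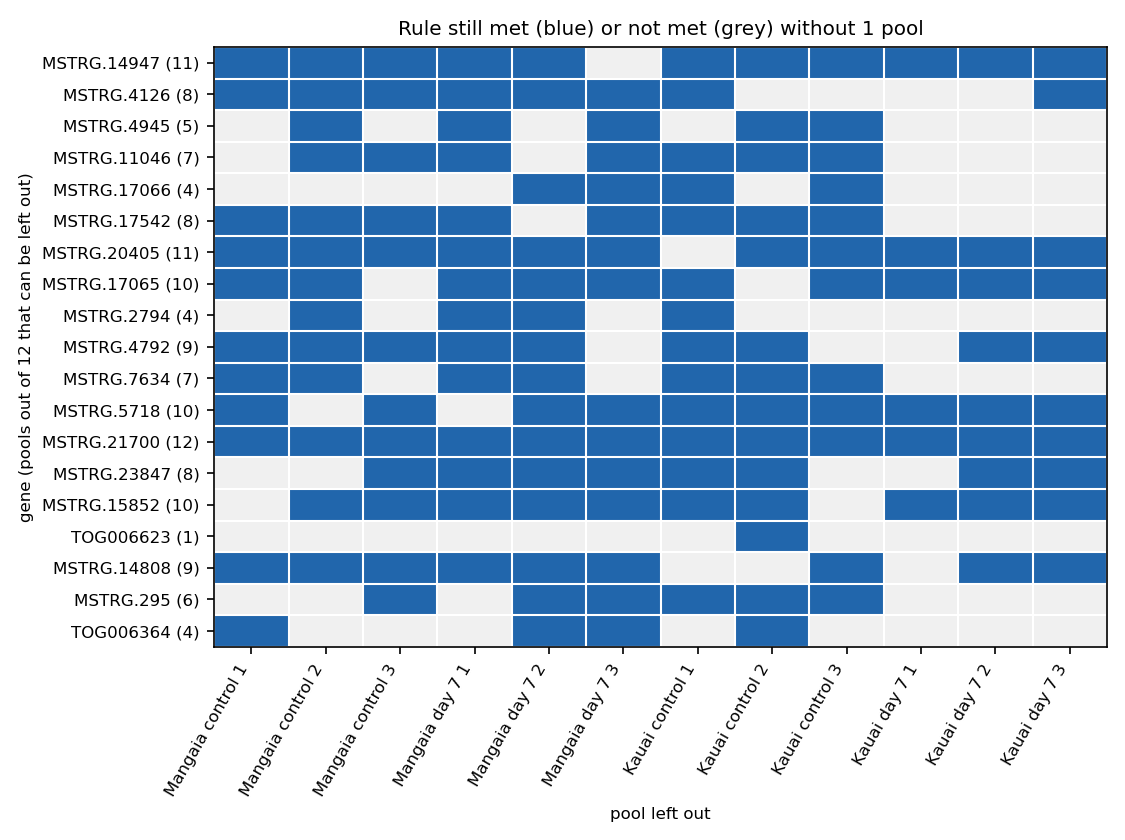
Rows are the 19 genes, with the number of cases out of 12 in which each met the rule, and columns are the control or day 7 pool left out, with TMM factors recomputed. Blue squares mark that the rule was still met. MSTRG.21700 is blue in all 12 columns, and the last 3 columns, for the Kauai day 7 pools, hold 6, 9 and 10 blue squares.

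At day 4, none of the 19 genes was called as different between the populations. So few of all tested genes were called that this count says little about the 19. In edgeR's quasi-likelihood test over all genes, 36 of 23748 genes (0.152%) had an adjusted p under 0.05, 32 of them higher in Kauai (0.135%) and 4 lower (0.0168%), and 0 of the 19 did. At an unadjusted p under 0.05 there were 4 of the 19, against 2339 of all tested genes (9.85%). The likelihood ratio test, DESeq2 and limma voom also called 0 of the 19, but DESeq2 gave no p-value for MSTRG.17066 and MSTRG.17065. The 19 log2 fold changes of Kauai against Mangaia ranged from -1.69 to 1.48, with a median of -0.22 against -0.01 over all tested genes, and 7 were above 0 and 12 below. Their median standard error was 0.577, against 0.453 over all tested genes, and no difference of the sizes found here reached an adjusted p under 0.05.

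Of the 4 genes with an unadjusted p under 0.05 at day 4, 3 were higher in Kauai and 1 was lower. MSTRG.20405 was higher in Kauai, by 1.48 on the log2 scale (SE 0.491 and adjusted p = 0.226 in edgeR's quasi-likelihood test), and all 3 Kauai pools were above all 3 Mangaia pools. MSTRG.5718 was also higher in all 3 Kauai pools, by 1.202 (SE 0.410; edgeR adjusted p = 0.244), from 12 to 20 read pairs in Kauai and 6 to 9 in Mangaia. MSTRG.14947 was higher by 1.42 on the log2 scale (SE 0.526; edgeR adjusted p = 0.307), with an interval of 2 standard errors from 0.37 to 2.48, and 1 Kauai pool at 277 CPM was within the Mangaia range of 145 to 319 CPM.

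MSTRG.4792 was the lower gene and had the lowest value of the 19, at -1.69 on the log2 scale (SE 0.745; edgeR adjusted p = 0.457), with overlapping pools. The day 4 pools of the populations did not overlap for 3 of the 19 genes, MSTRG.20405, MSTRG.5718 and, with Kauai lower, MSTRG.15852, against 16.3% of tested genes. That share is close to the share among all genes. No difference between the populations at day 4 was therefore established for any of the 19 genes.

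**Figure D4:**
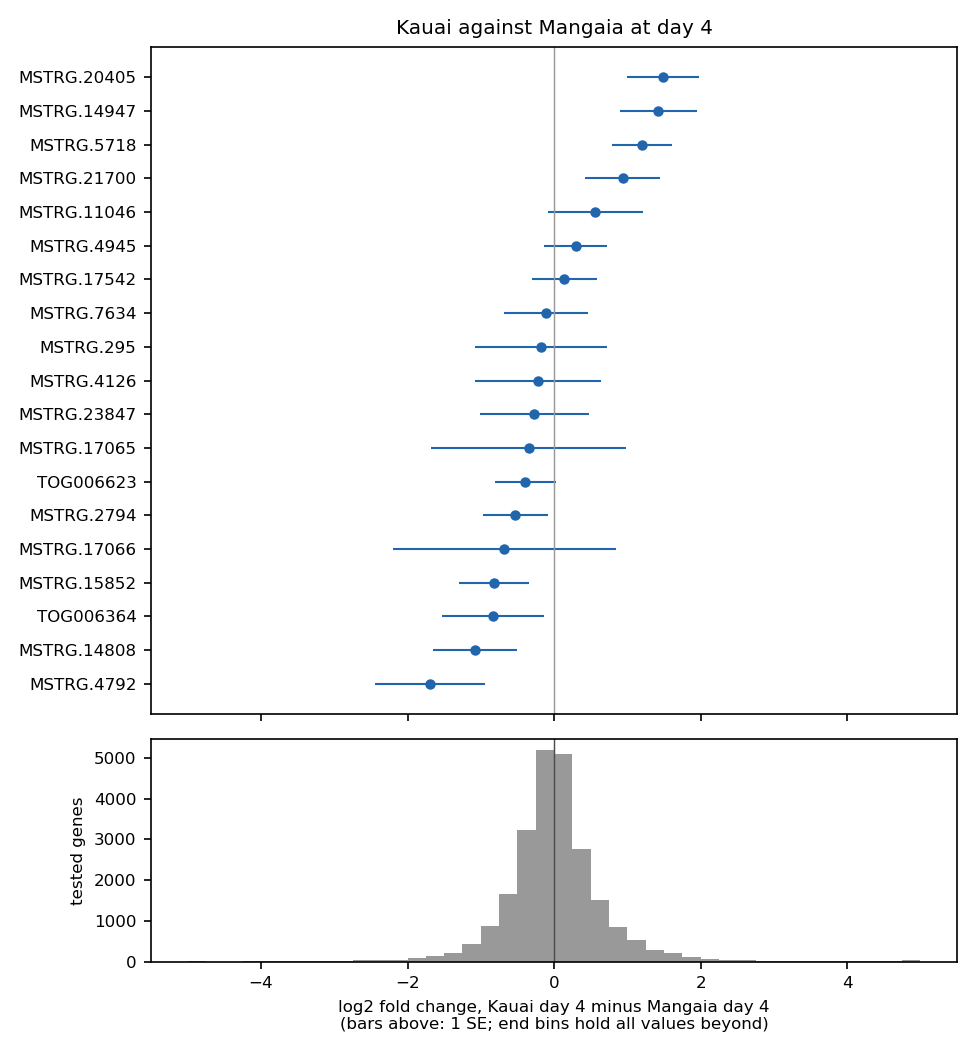
Upper panel, log2 fold change of Kauai against Mangaia at day 4 for each of the 19 genes, with bars of 1 standard error. Lower panel, the number of tested genes by log2 fold change, with the end bins holding all values beyond. The 19 genes spread from -1.69 to 1.48 on both sides of 0.

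Day 4 means were below the control mean for 18 of the 19 genes in Kauai and for 12 in Mangaia (52.0% of the 18346 genes in Mangaia). The ratio of day 4 to control means had a median over the 19 of 0.575 in Kauai and 0.903 in Mangaia, against 0.978 and 0.985 over the 18346 genes. In Kauai, 9 of the 19 were at or below 0.5 of control at day 4 (9.73% of the 18346 genes) and 9 were between 0.5 and 1 (42.4%). MSTRG.14808 alone was at or above control (47.9%). MSTRG.17066 and MSTRG.17065, whose Kauai control means rested on 1 pool, are among the 9 at or below 0.5. In Mangaia, 6 of the 19 were at or below 0.5 of control (7.52%), among them MSTRG.14947, MSTRG.11046 and MSTRG.7634, whose Mangaia day 7 means were at or above control. All Kauai day 4 pools were above all Kauai day 7 pools for 9 of the 19 (24% of tested genes). These ratios share their control and day 7 pools with the rule and were not tested.

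The calls that share libraries with the rule are given for completeness, and nothing is read from them. In edgeR's quasi-likelihood test, 15 of the 19 genes had an adjusted p under 0.05 for lower levels in Kauai at day 7 than in controls, against 26.2% of tested genes, and the exceptions were MSTRG.4126, MSTRG.4792, MSTRG.14808 and TOG006364. MSTRG.17066 and MSTRG.17065, whose Kauai control means rested on 1 pool, are among the 15. The Kauai control and day 7 pools did not overlap, with controls above, for 14 of the 19 (29.7% of tested genes), and all Kauai day 7 pools were below all Mangaia day 7 pools for 13 (11.8%). In Mangaia, 0 of the 19 were called at day 7 in either direction by the same test, against 31.4% of tested genes, and 1 had an unadjusted p under 0.05 (44.4% of tested genes), MSTRG.14808, which the likelihood ratio test and DESeq2 called. The Mangaia day 7 pools were all above the controls for that gene alone (21.7% of tested genes).

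The difference between the populations in the day 7 response, also a contrast of the rule, was called for 3 of the 19 genes, against 2.43% of tested genes. They were MSTRG.21700 (edgeR adjusted p = 0.0378), MSTRG.14947 (edgeR adjusted p = 0.0447) and MSTRG.15852 (edgeR adjusted p = 0.0499). Without any one of 10 of the 18 libraries none of the 19 was called, and over all 18 such fits 0 to 6 were. The likelihood ratio test called 12 and DESeq2 10. The share of 2.43% belongs to edgeR's quasi-likelihood test with all 18 libraries. Shares over all tested genes are not given here for the other fits, so their counts have no background beside them. The number of calls for this contrast thus depended on single libraries and on the test.

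Other sets and pool values were set beside the 19 genes. The supplementary list of immune-annotated genes, which holds part of those the study identified, gave 53 genes, and none of them was among the 19. With 19 genes in the set, nothing is read from that count. Of the 41 listed genes with control means in range, 3 were at or below 0.25 of control at day 7 in Kauai, and all of these were also lower in Mangaia: MSTRG.6375, matched to an interleukin-1 receptor-associated kinase 1-binding protein, with a Mangaia ratio of 0.130, MSTRG.23133, matched to cytochrome b5, with 0.218, and MSTRG.2949, matched to an aquaporin, with 0.0888. The study chose that list on these samples.

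The summed level of the 18 genes without MSTRG.14947 ranged from 60.6 to 75.5 CPM in Mangaia controls, 62.1 to 71.3 CPM at day 4 and 72.3 to 91.8 CPM at day 7. In Kauai the sum ranged from 87.0 to 124 CPM in controls, 35.9 to 70.4 CPM at day 4 and 12.1 to 29.4 CPM at day 7, with day 4 pool 3 lowest of its group. The summed level of 6 immune-listed genes that the study had placed in a falling group ranged from 42.6 to 52.0 CPM in Mangaia controls and 9.09 to 16.9 CPM at day 7, and from 65.3 to 109.6 CPM in Kauai controls and 9.02 to 19.3 CPM at day 7. The choice of both sets fixed these directions, and the sums are given to show the level of each pool.

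The share of unassigned reads also differed between groups. The share of pairs that mapped to more than 1 place was 10.9% to 12.0% in Kauai controls and 6.57% to 8.28% at day 7, against 10.1% to 12.3% and 8.52% to 11.2% in Mangaia. The unmapped share was 8.14% to 9.99% in Kauai controls and 10.4% to 10.6% at day 7, against 8.30% to 9.19% and 8.41% to 11.6% in Mangaia, where the highest value of all libraries was found. The part of these shares in the levels of the 19 genes was not tested.

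**Figure D5:**
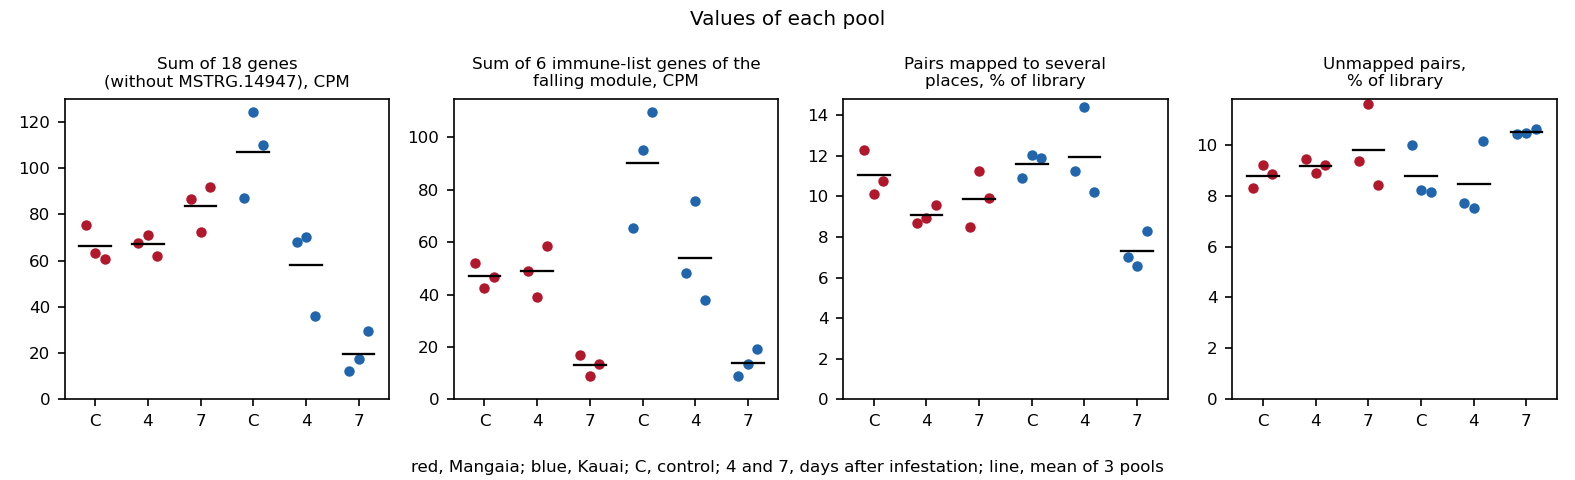
Values of each pool (points) and group means of 3 pools (lines) for the summed CPM of the 18 genes without MSTRG.14947, the summed CPM of the 6 immune-listed genes, and the percentages of pairs that mapped to several places or did not map. The first sum is lowest in the Kauai day 7 pools, at 12.1 to 29.4 CPM, and the second is low in the day 7 pools of both populations.

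The strand of the gene models was read from the counts and was not tested. Of the 19, 11 (57.9%) had identical counts on either strand setting, as a model without an assigned strand gives, against 38.4% of the 18346 genes. The strand that a read came from cannot be told in these unstranded libraries, for these or any other genes. TOG identifiers belonged to 2 of the 19, against 5.23% of the 18346 genes.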

How the data were processed

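The deposited files hold raw read counts per gene, 1 file per pool. The authors trimmed reads with Trimmomatic 0.33, aligned read pairs to a T. oceanicus genome assembly with STAR 2.5.3a, repeated the alignment with junctions merged by StringTie 1.3.4d, and counted pairs per gene; the build name is not given in the sources used here. The mRNA libraries were not stranded, so the unstranded counts were used.

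A gene was tested if 2 or more libraries reached 1 CPM. Counts were scaled by TMM (factors 0.846 to 1.15). The factors were 0.846 to 0.927 in Kauai controls and 1.03 to 1.15 in Kauai day 7 pools. The counts were fitted in 1 model of the 6 groups with edgeR 4.0.16 in R 4.3.3. Quasi-likelihood tests were used, with Benjamini-Hochberg adjustment over all 23748 genes and a threshold of 0.05. Standard errors were derived from the F statistic. DESeq2 1.42.0, limma 3.58.1 (voom), edgeR's likelihood ratio test and other scalings and filters were alternatives, and the code was tested on simulated data. Pools are separate pairs of animals. Figures were drawn with matplotlib 3.10.9.

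The genes and lists were chosen with earlier results of these data known. Values are given for the 10 genes with the highest Kauai control mean, those with control means of at least 5 CPM (the 5 lowest Kauai and the 5 highest Mangaia ratios), genes called at day 4, immune-listed genes of the set, and the 2 genes on either side of each limit. No genome, annotation or sequence was used.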

Additional observations from a re-analysis of the deposited data

Results flagged for a closer look

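In 2 of the 19 genes all Kauai pools at one time after infestation lay below the lowest Kauai control pool, and all Mangaia pools of that time lay above the highest Mangaia control pool. At day 7 this held for 1 of the 19 genes and for 1.37% of the 18346 genes. The share over all genes at day 4 was not counted, and the difference was not tested by that route. TOG006623 at day 4 had a ratio to the control mean of 0.749 in Kauai and 1.92 in Mangaia, from 8 to 16 read pairs per pool, and its log2 fold change between the populations at day 4 was -0.39 (SE 0.417; edgeR adjusted p = 0.907). Its highest Kauai day 4 pool (1.907 CPM) was nearly equal to its lowest Kauai control pool (1.912 CPM). MSTRG.14808 at day 7 had a ratio of 0.244 in Kauai and 3.51 in Mangaia, a contrast that chose the gene.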

How the results depend on the processing

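The number of genes that met the rule was 19 with TMM, 18 with RLE factors (13 shared), 26 with the median of 3 pools (8 shared), and 6 with library size alone (all shared), where the median log2 change of all genes in Kauai at day 7 was 0.37 in place of 0.07 (-0.10 with RLE factors). It was 3 with the Kauai limit lowered to 0.5 of itself and 247 with a limit of 0.5 of control. The 3 genes were MSTRG.17065 and MSTRG.17066, which rested on 1 Kauai control pool, and MSTRG.295, with 4 read pairs in Kauai at day 7. With control means of at least 5 CPM, a limit added after the data were seen, 4 genes met the rule. Leaving out 1 pool gave 13 to 27 genes over both ways of scaling. Called genes at day 4 numbered 36 over all genes, 505 by the likelihood ratio test, 504 by DESeq2, 54 by limma voom, 20 with filterByExpr, 1 with day 4 libraries alone, 0 with RLE factors, library size alone, no filter or the replicate block, and 0 to 224 when 1 library was left out (224 without Kauai day 4 pool 3). None of the 19 genes was called in these fits, although DESeq2 gave no p-value for MSTRG.17066 and MSTRG.17065. Their median log2 fold change at day 4 was -0.31 to -0.20, and -0.32 to 0.17 when 1 library was left out. Of 378 values of named genes, 8 changed sign, none of them called: MSTRG.23847 was 0.12 by limma voom, and when 1 library was left out MSTRG.7634 ranged from -1.14 to 0.35, MSTRG.23847 from -0.75 to 0.31, MSTRG.17542 from -0.018 to 0.47 and MSTRG.4126 from -1.02 to 0.36. The cause was not tested. Pool numbers did not pair the pools: deviations of same-numbered pools correlated from -0.51 to 0.26, over 0.1 in 10 of 45 pairs. Read counts under about 20 pairs per group limit the lowest genes.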
